A study of Rattus norvegicus with 2 samples.

Results

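Cluster 3 of a single-cell RNA-seq study of neonatal rat heart cells was described, the cluster that the deposited cell table names ICA and cardiomyocyte (ICA, intrinsic cardiac adrenergic). All cells of both libraries with cluster number 3 in that table were taken, without sub-clustering. They numbered 1765 of the 24210 cells with a cluster, 836 of 11529 (7.25%) in the saline library and 929 of 12681 (7.33%) in the LPS library. The cells came from hearts of Sprague-Dawley rats aged 1 to 3 days, with males and females both used. Ventricular tissue cut from the apex was minced and digested with trypsin, and a Percoll density gradient was used to enrich ICA cells. Its low-density band, described as holding fibroblasts, immature and some other cardiomyocytes, ICA cells and macrophages, was plated and cultured. The cells were kept with saline (control group) or with 1 µg/ml LPS, a bacterial endotoxin, for 2 h. Each condition was 1 10x 3′ library, and the labels call the cells of both libraries ICA cells. Apart from the LPS, both groups were described as handled alike. The number of rats is stated for the single-cell work as a whole, not for each library.

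Cardiomyocytes are the contractile cells of the heart muscle. Their sarcomeres are built of myosin thick filaments and actin and troponin thin filaments, anchored at Z-discs, and contraction is switched on by calcium released from the sarcoplasmic reticulum. LPS is sensed by Toll-like receptors, whose signalling releases NF-κB from its inhibitor IκBα and induces cytokines, chemokines and the inhibitors that end the response. ICA cells are described as small cells of the heart that make catecholamines from tyrosine with the enzymes tyrosine hydroxylase, DOPA decarboxylase, dopamine β-hydroxylase and phenylethanolamine N-methyltransferase.

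Cluster 3 held 7078654 UMIs (unique molecular identifiers, 1 per captured transcript) in the saline library and 5480790 in the LPS library. The median was 7526 UMIs and 2165.5 genes per saline cell and 5269 UMIs and 1709 genes per LPS cell. Levels are therefore given as CPM, summed UMIs per 1000000 UMIs of the cells in question, always saline first and LPS second, and a ratio is the LPS level over the saline level. With 1 library per condition no test was possible. The 95% intervals (exact, Clopper-Pearson) cover counting error only, and LPS cannot be told apart from any other difference between the libraries. A UMI counts the 3′ end of a transcript whatever its length, and genes differ in how well that end is captured, so an order of different genes by UMIs is an order of counts only. Of the barcodes, 194 occurred in both libraries, among them 12 saline and 16 LPS cells of cluster 3, and 1 barcode lay in cluster 3 of both. Leaving out every shared barcode moved the counts of genes past 2-fold over all genes by less than 1.5-fold. It changed the counts of 3 lists: 2 LPS sensing genes rose in place of 1, 2 fibroblast markers fell in place of 3, and 9 interferon response genes rose in place of 10.

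The 7 marker genes named for the cluster were checked first, and all were far above the other large clusters. Tnnt2, cardiac troponin T of the thin filament, was at 4036 and 4408 CPM. The level of Myh7, the slow β-myosin heavy chain, was 3287 and 3467 CPM. Casq2, the calcium-storing calsequestrin of the sarcoplasmic reticulum, was at 179 and 169.7 CPM. Trdn, triadin, which ties calsequestrin to the calcium release channel, was at 74.9 and 73.2 CPM. Smpx, a small protein of muscle costameres, was at 323 and 317 CPM, and Trim55, a muscle ubiquitin ligase, at 94.4 and 107 CPM. With each cell thinned to 3000 UMIs, 100% of cluster 3 cells in both libraries held at least 1 marker UMI and 87.8% and 88.3% held UMIs of at least 3 markers. In cluster 0, the largest fibroblast cluster, 35.2% and 31.5% of thinned cells held a marker UMI and 0.0303% and 0.0712% held 3 markers. Sarcomere transcripts made up a median of 2.64% of a saline cell's UMIs and 2.75% of an LPS cell's, against 0.121% and 0.104% in cluster 0. The cardiomyocyte name fitted these markers in most cells of the cluster. They were named with earlier results of these data known, so they describe the cluster and do not test its name.

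**Figure D1:**
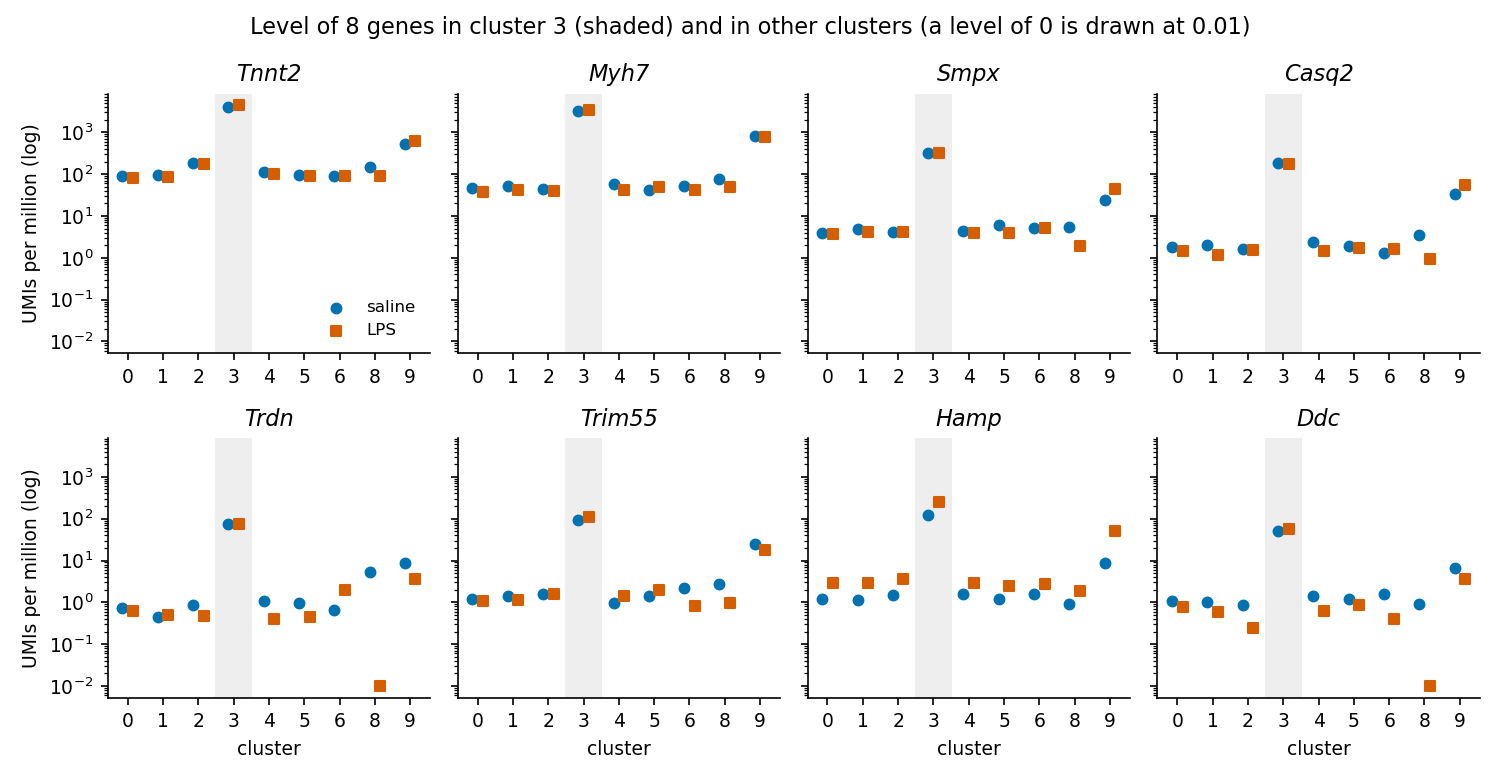
Level of 8 genes (CPM, log axis, a level of 0 drawn at 0.01) in clusters 0 to 6, 8 and 9, with 1 point for each library. All 8 genes, the 7 markers and Ddc, stood highest in cluster 3 (shaded) in both libraries, with cluster 9 next, and Hamp was the marker with the widest gap between the libraries.

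The adrenergic name rested on fewer genes. Th, tyrosine hydroxylase, the first enzyme of catecholamine synthesis, was listed at 0 in both libraries. Hsp90aa1, a chaperone that every cell uses, was also listed at 0, so a 0 here gives no upper limit on a transcript's level. Pnmt, the enzyme that makes adrenaline, had 1 UMI in each library, and Slc6a2, the noradrenaline transporter, had 7 and 9. Ddc, DOPA decarboxylase, was at 49.6 and 56.9 CPM, a ratio of 1.15 (0.982 to 1.34), and Dbh, dopamine β-hydroxylase, was at 25.4 and 24.8 CPM. At 3000 UMIs per cell, 15.1% and 16.5% of cells held a Ddc UMI and 6.22% and 8.42% a Dbh UMI, against 0.348% and 0.157% and 0.167% and 0.0997% of cluster 0. Ddc and Dbh were thus enriched in cluster 3 in both libraries, with the first enzyme listed at 0. Of the 12 genes listed for catecholamine synthesis, storage and breakdown, 6 had 50 UMIs or more, and 1 of those rose: Gch1, which makes the cofactor of tyrosine hydroxylase, went from 1.98 to 9.85 CPM and had no value left when free RNA was subtracted as described below.

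For LPS against saline, a gene was said to rise or fall when its level changed at least 2-fold among the 8465 genes with 50 UMIs or more over both libraries of cluster 3, 0.5 UMI being added to each sum. Of these, 142 (1.68%) were higher and 141 (1.67%) lower in LPS, and 90.4% were within 1.5-fold. The shares of 1.68% and 1.67% are the background for every count of list members that rose or fell, unless another setting is named. With free RNA subtracted as described below, the background was 200 higher and 347 lower of 7914 genes. With thinned cells it was 93 higher and 59 lower of 6675. A second count took only genes whose level in cluster 3 exceeded that in each of clusters 0, 1, 2, 4, 5, 6, 7 and 8 in both libraries. Of these 1974 genes, 6 (0.304%) were higher and 3 (0.152%) lower, and 96.0% were within 1.5-fold. Most genes past 2-fold were therefore genes with higher levels in some other cluster. The 6 were Prima1, Bdkrb2, Trpc1, Acvr1b, Hamp and the clone gene AABR07052529.1, and the 3 were Smim5, Fgf9 and LOC103689999.

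**Figure D2:**
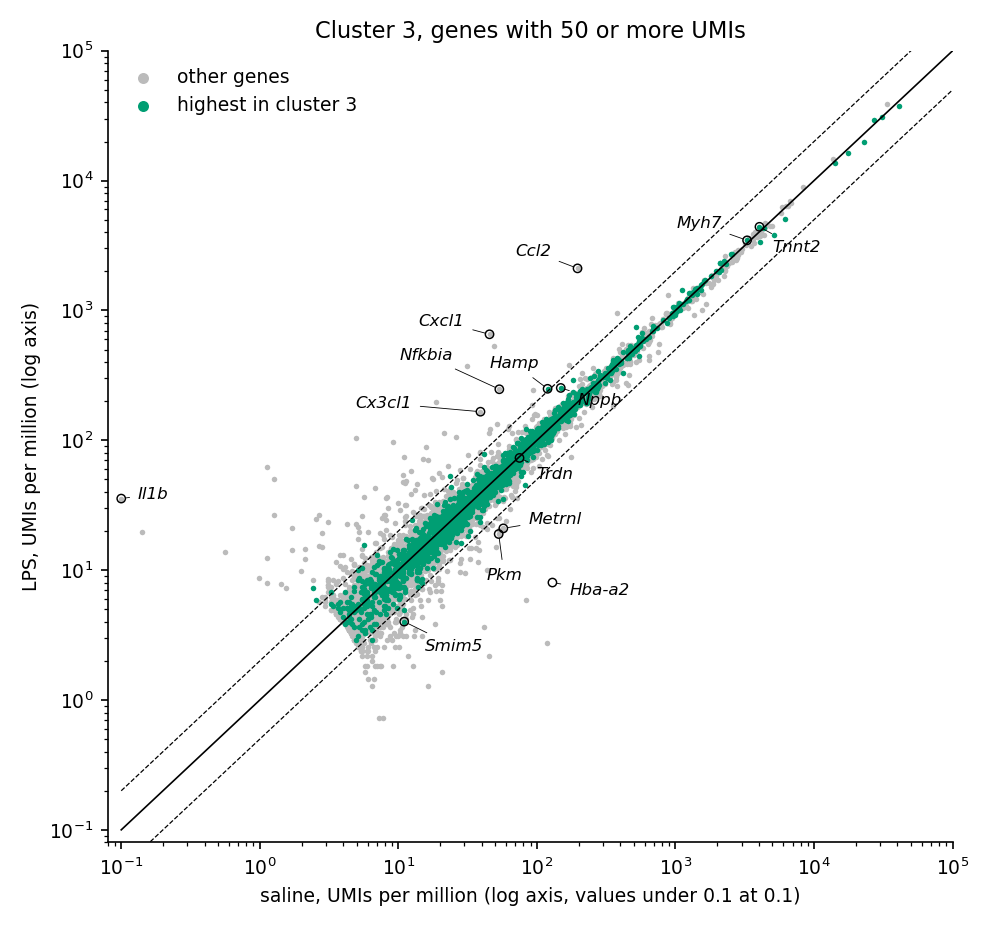
Level of each of the 8465 genes in cluster 3 of the LPS library against the saline library (CPM, log axes), with genes highest in cluster 3 coloured and lines at a 2-fold difference. Nearly all of the 1974 coloured genes lay between the lines, and 9 lay on or beyond them.

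Most genes of the contractile apparatus stood at nearly equal levels in the libraries. Of the 11 thick filament genes 7 had enough UMIs (50 or more) and 0 moved past 2-fold, with a median log2 ratio of 0.03, and of the 10 thin filament genes 9 had enough, 0 moved and the median was 0.03. Tnnc1, the calcium-binding troponin C, was at 2553 and 2699 CPM, Tnni3, the adult cardiac troponin I, at 995 and 1019, and Mybpc3, cardiac myosin-binding protein C, at 609 and 600.1. For Myh7 the ratio was 1.05 (1.03 to 1.08) and for Tnnt2 it was 1.09, so the largest sums gave narrow counting intervals around small differences. In lists of this size a count of 0 is near the background of 1.68% and 1.67%, so the medians and values describe them better than the counts. The thin filament gene farthest from 1 was Tnnt1, slow skeletal troponin T, with 60 and 28 UMIs, a ratio of 0.603 (0.370 to 0.959), and Acta1, skeletal actin, had a ratio of 0.807 (0.725 to 0.899). In all other cells, where these transcripts are scarce, the ratio was 0.811 for Myh7 and 0.775 for Tnnc1. The 17 Z-disc and costamere genes (14 with enough UMIs, 0 past 2-fold, median 0.00) and the 6 muscle ubiquitin ligases and atrophy genes (4 with enough, 0 past 2-fold, median 0.15) showed the same small range.

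Calcium handling and excitation genes were alike in this respect. Atp2a2, the calcium pump SERCA2, was at 1329 and 1381 CPM, its inhibitor Pln, phospholamban, at 2119 and 2049, and Ryr2, the calcium release channel, at 24.2 and 22.3. Of 16 calcium handling genes 12 had enough UMIs and 0 moved (median −0.04), and of 16 ion channels and pumps 9 had enough and 0 moved (median −0.03). Hcn4, the pacemaker channel, was at 15.8 and 18.1 CPM. Among the 11 intercalated disc genes, which join cardiomyocytes end to end, 9 had enough UMIs and 0 moved, with a median of 0.12. Cdh2, N-cadherin, was at 536 and 620.3 CPM, Dsp, desmoplakin, at 376 and 431, and Gja1, connexin 43, at 511 and 486.

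Transcription factors and chamber genes differed little as well. Nkx2-5, a master regulator of heart muscle, was at 121 and 134 CPM and Gata4, its partner, at 88.7 and 92.0. Of 18 cardiac transcription factors 12 had enough UMIs and 0 moved (median 0.01). Of 7 atrial, 6 ventricular and 7 conduction system genes, 4, 5 and 2 had enough, and 0 moved in each list. Hopx, a homeodomain cofactor, had a ratio of 0.683, with 259 and 137 UMIs.

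Pairs of related sarcomere genes that differ by developmental stage or chamber gave shares that need no scaling for depth. Myh7 held 80.2% (79.8 to 80.7) of the UMIs of Myh7 and Myh6, the fast α-myosin heavy chain, in saline cells and 80.5% (80.0 to 81.0) in LPS cells, with a median over cells of 83.3% in both. The share of Tnni1, the slow skeletal troponin I that precedes Tnni3 in development, was 61.6% and 62.3%. Myl7, the atrial light chain, held 99.4% of the UMIs of Myl2 and Myl7 in both libraries, with only 12 and 9 UMIs of the ventricular Myl2. Genes differ in 3′ capture, so this share does not tell the chamber, and the tissue was described as ventricular. Acta1, a gene of the fetal and stressed heart, held 12.3% (11.5 to 13.1) and 10.4% (9.57 to 11.2) of the summed UMIs of Acta1 and Actc1, cardiac actin. The intervals for Acta1 did not overlap and those for Myh7 did, and in all other cells the Acta1 share was 12.2% and 10.2%.

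**Figure D3:**
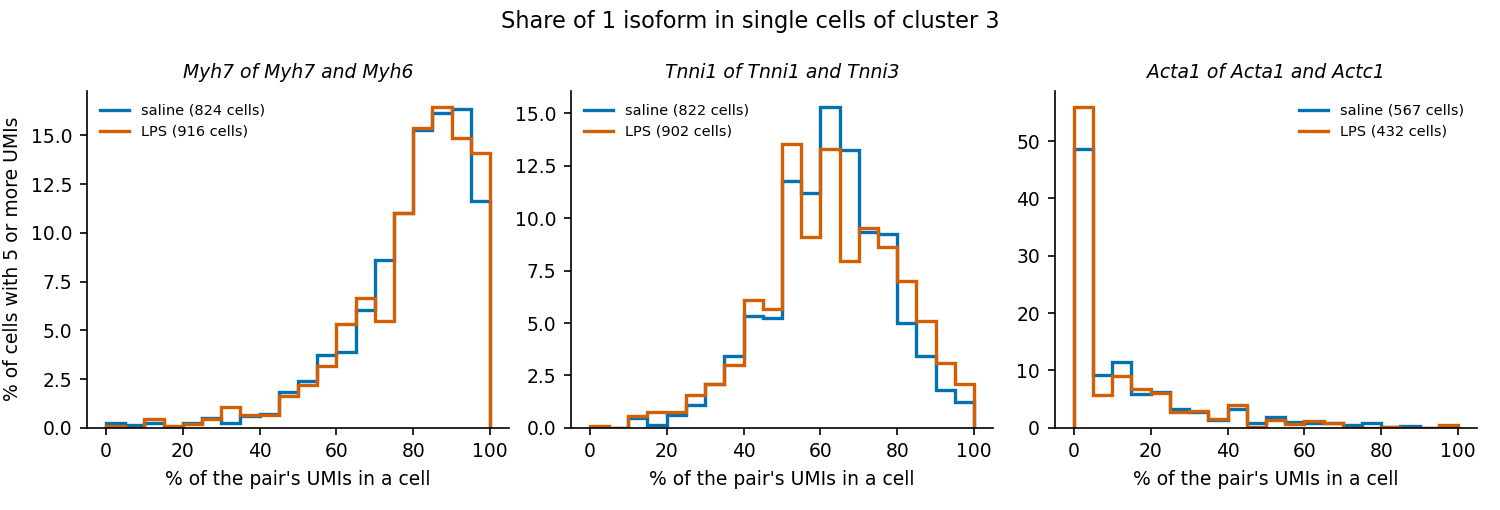
Share of cluster 3 cells (percent, vertical axis) by the share of a pair's UMIs held by its first gene (percent, horizontal axis), for cells with at least 5 UMIs of the pair, with saline and LPS drawn separately. The outlines of the libraries overlapped for Myh7 and Tnni1, and for Acta1 the lowest bin held a larger share of the LPS cells (242 of 432) than of the saline cells (276 of 567).

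Hamp, which encodes hepcidin, the peptide hormone that removes the iron exporter ferroportin from cell surfaces, had the highest UMI sum of the 6 genes. It was at 119 CPM in saline cells (845 UMIs) and 249 CPM in LPS cells (1366 UMIs), a ratio of 2.09 (1.91 to 2.28). In all other cells it was at 1.29 and 2.97 CPM, and in cluster 9, which the cell table leaves unnamed and which also held heart muscle transcripts, it was at 8.89 and 50.1. At 3000 UMIs per cell, 26.0% (23.0 to 29.1) of saline cells and 38.2% (35.1 to 41.4) of LPS cells held a Hamp UMI, against 0.318% and 0.769% of cluster 0, and unthinned the shares were 44.1% and 51.5%. No single cell carried it, as the richest cell held 2.49% of the saline UMIs and 2.27% of the LPS UMIs. The log2 ratio of 1.06 lay close to the 2-fold limit: it was 0.90 with thinned cells, 0.97 for the mean of the cells' own levels, 0.91 without the 8% of cells with most UMIs and 0.95 without the 10% of cells richest in markers of other types.

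The promoter of Hamp is shown because Hamp was the marker that moved, beside that of Nfkbia, a classical NF-κB target described below. Each run gives the 250 bases before the RefSeq gene start (GRCr8), in the 5′ to 3′ direction of the gene, with motif matches in capitals. Hamp lies on the minus strand at chr1:95300272-95300521 and Nfkbia on the minus strand at chr6:78597073-78597322.
Hamp: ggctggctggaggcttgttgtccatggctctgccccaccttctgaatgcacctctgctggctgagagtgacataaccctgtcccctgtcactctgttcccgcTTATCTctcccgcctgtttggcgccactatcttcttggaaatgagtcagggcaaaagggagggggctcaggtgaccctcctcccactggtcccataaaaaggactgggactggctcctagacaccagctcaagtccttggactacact
Nfkbia: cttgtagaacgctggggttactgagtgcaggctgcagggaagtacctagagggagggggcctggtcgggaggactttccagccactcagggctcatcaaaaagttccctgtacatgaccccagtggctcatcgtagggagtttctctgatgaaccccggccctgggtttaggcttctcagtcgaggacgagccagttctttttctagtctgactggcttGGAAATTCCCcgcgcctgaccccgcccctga
The capitals in Hamp mark the letters AGATAA, the core of a GATA-type motif, read on the reverse strand, and those in Nfkbia a match to the κB motif. Both strands of 33469 promoters were searched over the same 250 bases. AGATAA was found in 10.3% of them, the κB motif in 3.54%, the CArG box in 1.497% and the MEF2 motif in 0.523%. Of the other promoters searched, that of Cx3cl1, which rose, held none of the 4 motifs, and 1 of the 2 RefSeq entries of Tnnt2, which did not, held AGATAA. The κB motif, the CArG box and the MEF2 motif had no match in the Hamp window, and a match or its absence is a description of these letters only.

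The other genes of iron handling were taken with Hamp as 1 list of 18, of which 13 had enough UMIs. Of these 3 rose (Hamp, Bmp2 and Id1), beside 1.68% of all genes tested, and the median log2 ratio was 0.32. With thinned cells 1 of 12 rose. Without the 8% of cells with most UMIs it was 1 of 13, as it was without the 10% of cells richest in markers of other types. Bmp2, a bone morphogenetic protein of the family that induces hepcidin, went from 2.54 to 24.6 CPM. Id1, a direct target of that signalling, went from 91.5 to 188 CPM, a ratio of 2.05 (1.86 to 2.27), and its ratio in all other cells was 1.97. Id1 lay at the 2-fold limit, with a log2 ratio of 1.04 and of 0.98 with thinned cells, and Bmp2 had no value left when free RNA was subtracted as described below. Hjv, hemojuvelin, the coreceptor for this signal, was at 8.05 and 7.30 CPM. Of the iron carriers, Slc39a14, the importer ZIP14, was at 23.9 and 43.8 CPM, with a ratio of 1.83 (1.5002 to 2.25), and Slc11a2, the importer DMT1, was at 46.8 and 81.7. Slc40a1, ferroportin, was at 22.6 and 15.5 CPM, a ratio of 0.686. Neither the transferrin receptor Tfrc (62.7 and 66.0 CPM) nor the ferritin heavy chain Fth1 (6255 and 6346) approached 2-fold.

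Prima1, Bdkrb2, Trpc1 and Acvr1b were the other rises among symbol-named genes highest in cluster 3. Acvr1b, a type I receptor for activins, went from 23.7 to 53.5 CPM, a ratio of 2.25 (1.86 to 2.74), beside 2.63 in all other cells. Bdkrb2, the bradykinin B2 receptor, went from 5.65 to 15.5 CPM (40 and 85 UMIs), a ratio of 2.74 (1.86 to 4.10), beside 1.21 in all other cells. Prima1, the membrane anchor of acetylcholinesterase, had 17 and 40 UMIs, a ratio of 3.04 (1.68 to 5.72), beside 0.522, and Trpc1, a cation channel subunit, 18 and 32 UMIs, a ratio of 2.296 (1.25 to 4.34), beside 0.656. The counts for Prima1 and Trpc1 were small and their intervals wide. Under the limit, Slc22a23, a solute carrier, had 36 and 55 UMIs, a ratio of 1.97 (1.27 to 3.09). Its log2 ratio of 0.97 was past the limit with thinned cells (1.32), with cells of at most 20% mitochondrial UMIs (1.06) and without the 8% of cells with most UMIs (1.02). Farther from the limit was Sbno2, a transcriptional regulator downstream of STAT3, with a ratio of 1.88 (1.62 to 2.19) beside 1.17 in all other cells. The log2 ratio of Sbno2, 0.91, was 1.05 with free RNA subtracted as described below. Wnt5a, a secreted Wnt ligand, had a ratio of 1.71 (1.36 to 2.15) beside 0.784.

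Falls among these genes rested on few UMIs. Smim5, a small membrane protein, had 78 and 22 UMIs, a ratio of 0.364 (0.216 to 0.591), beside 0.329 in all other cells. Fgf9, a fibroblast growth factor, had 46 and 16 UMIs, a ratio of 0.449 (0.237 to 0.808), beside 0.183, and its log2 ratio of −1.13 was −0.83 without the 8% of cells with most UMIs. LOC103689999, which has no symbol of its own, had 78 and 27 UMIs. Among the genes just short of the limit were Jph1, a junctophilin that holds the membranes of the calcium release unit together, at 6.92 and 3.83 CPM, and Tpi1, a glycolytic enzyme, at 81.9 and 45.2. Of 17 glycolysis genes 16 had enough UMIs and 1 fell, beside 1.67% of all genes tested, and the median log2 ratio was −0.07. The 1 was Pkm, pyruvate kinase, which went from 53.0 to 19.0 CPM, and Pfkm, the muscle phosphofructokinase, was at 77.1 and 53.5.

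Secreted factors and the load-responsive genes of the cardiomyocyte moved to different degrees. Nppb, brain natriuretic peptide, was at 149 and 253 CPM, a ratio of 1.70 (1.57 to 1.85), and was found in 25.8% (22.9 to 28.9) and 37.6% (34.5 to 40.8) of thinned cells, against 0.576% and 1.15% of cluster 0. Nppa, atrial natriuretic peptide, was at 2052 and 1977 CPM, a ratio of 0.963. Ankrd1, a stretch-responsive cofactor of the sarcomere and nucleus, was at 1106 and 1445 CPM, a ratio of 1.31 (1.27 to 1.35), beside 0.991 in all other cells. Nppb thus differed more between the libraries than Nppa, whose level differed by a few percent. Of the 13 genes listed as secreted by cardiomyocytes 5 had enough UMIs and 1 fell: Metrnl, a secreted factor of muscle, went from 57.2 to 21.0 CPM, a ratio of 0.367 (0.295 to 0.452), beside 0.244 in all other cells. When free RNA was subtracted as described below, its log2 ratio of −1.44 became −0.59, under 2-fold. Vegfa, the vascular growth factor, was at 116 and 147 CPM, and its ratio of 1.26 stood beside 2.69 in all other cells.

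Free RNA from burst cells enters every droplet, so RNAs of other cell types gave a guide to its size. The fibroblast markers summed to 3947 and 3524 CPM in cluster 3, which was 38.4% and 38.9% of their level in all other cells pooled (18.9% to 76.1% for single genes in LPS). Col1a1, a collagen chain and the one with most UMIs, was at 1577 and 1332 CPM. For endothelial markers the share was 42.4% and 44.0% and for macrophage markers 24.4% and 16.6%, with 149 and 135 CPM and 40.8 and 17.2 CPM. Markers of mural cells (519.6 and 414 CPM), of the epicardium (17.2 and 15.1) and of nerve and glia (21.9 and 10.8) were also found, and the neutrophil and lymphocyte list gave 3 and 4 UMIs in all. Chga, Chgb and Snap25 of the nerve list were listed at 0. Transcripts of most of these lists were thus measurable in cluster 3 of both libraries, and 1 of the 11 fibroblast markers, Pdgfra, a growth factor receptor, itself rose, from 45.1 to 113 CPM, while 3 fell.

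Single members of these lists stood above all other cells. Cspg4, a proteoglycan of the mural list, was at 32.4 and 39.8 CPM, 588% and 567% of all other cells, and Krt18, a keratin of the epicardial list, at 4.52 and 6.75 CPM, 1994% and 947%, so the mural and epicardial sums include genes with higher levels in cluster 3 than in all other cells. The endothelial sum and its share of 42.4% and 44.0% include 1 such gene as well, Kdr, which had the most UMIs of that list in LPS. Kdr, the receptor VEGFR2, was at 23.3 and 39.0 CPM in cluster 3, a ratio of 1.68 (1.36 to 2.06). That was 202% and 360% of its level in all other cells, which was 11.5 and 10.9 CPM. It was at 3.89 and 3.13 in cluster 0 and at 83.8 and 87.7 in cluster 4, the larger endothelial cluster. Over cells thinned to 3000 UMIs, 6.46% and 12.4% held a Kdr UMI, against 1.18% and 0.797% of cluster 0. Of the 9 endothelial markers with enough UMIs, of 11 listed, 0 moved past 2-fold and the median log2 ratio was −0.42.

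Against this guide the genes that changed fell into groups. Of the 142 that rose, 115 also rose at least 2-fold over all other cells, and in LPS the level of 105 was no higher, as a percentage of all other cells, than that of the most retained fibroblast marker (76.1%). For 11 it lay between that and 100%, and 26 were higher in cluster 3 than in all other cells. Of the 141 that fell, 87 also fell over all other cells, and with saline levels and the highest saline fibroblast marker (57.7%) in place of 76.1% the 3 classes held 77, 37 and 27. The median gene that rose stood at 48.2% of its level in all other cells in LPS, against 105% for all genes tested. Fibroblast RNA in cluster 3 can also come from doublets or from low expression there, so the pooled fibroblast share may overstate free RNA. For single genes it is no upper limit, as the median fibroblast marker stood at 41.5% in both libraries. Pooled shares were 50.3% and 43.1% for mural, 42.4% and 44.0% for endothelial and 24.4% and 16.6% for macrophage markers. A subtraction of the fibroblast share, 38.4% and 38.9% of each gene's level in all other cells, left 62 of the 142 with 50 UMIs or more, and 44 of these were still at least 2-fold higher, among them Hamp, Id1, Acvr1b, Bdkrb2, Prima1, Cx3cl1, Mx2, Ier3, Maff, Myc and Nfkbiz. Of the 141 that fell it left 37 with 50 UMIs or more, and 29 of these were still at least 2-fold lower. The part of free RNA in the other changes was not tested.

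**Figure D4:**
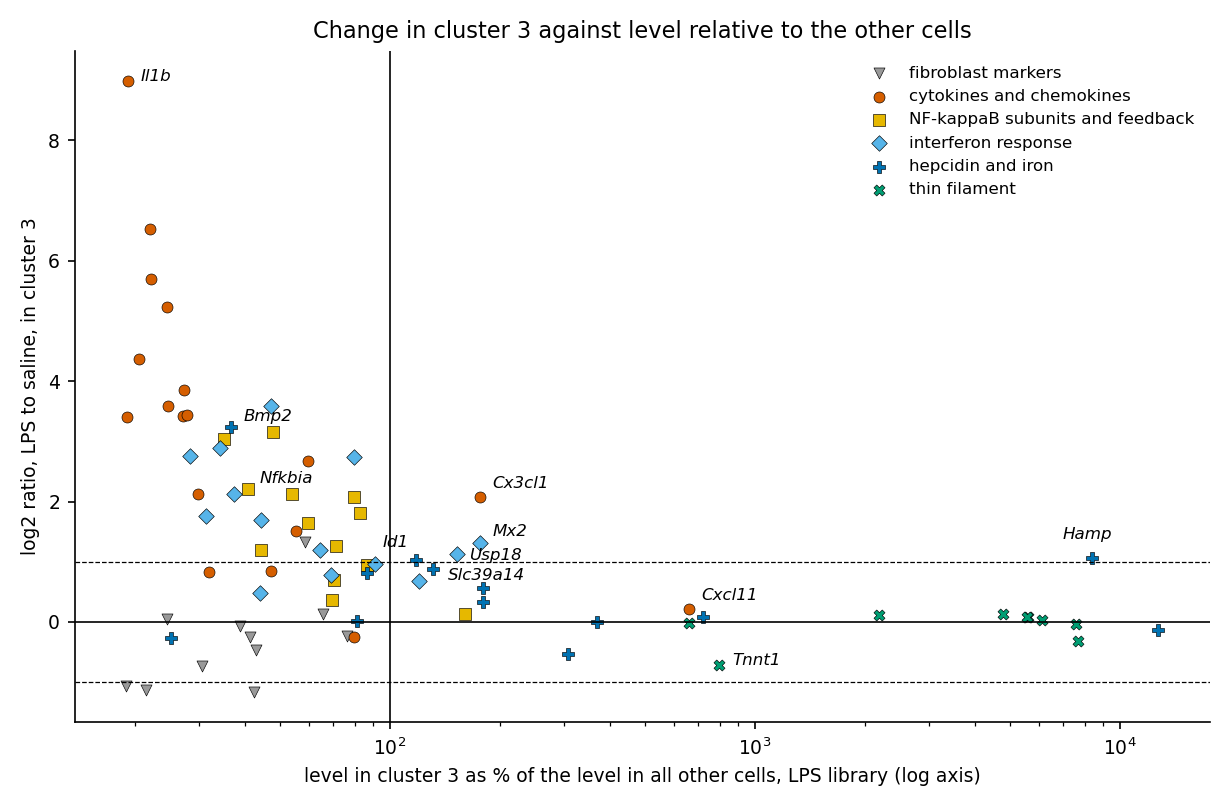
Log2 ratio of LPS to saline in cluster 3 (vertical axis) against the level in cluster 3 as a percentage of all other cells (horizontal log axis), in the LPS library, 1 point for each member of 6 gene lists with 50 UMIs or more. Most points above the upper 2-fold line lay left of 100%, and Hamp, Cx3cl1, Mx2, Usp18 and Id1 lay to the right of it.

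Cytokine and chemokine RNA had the highest median log2 ratio of the lists. Of the 27 genes 18 had enough UMIs, 14 rose, 0 fell and the median log2 ratio was 3.42, and 0 of them were highest in cluster 3. The list summed to 569 and 4658 CPM. Ccl2, which draws monocytes, went from 196 to 2109 CPM, 27.0% of its level in all other LPS cells. Il1b, interleukin-1β, had 0 and 195 UMIs, or 35.6 CPM in LPS, 19.2% of all other cells. Both percentages lay below those of the fibroblast markers pooled. The richest cell held 11.3% of the Il1b UMIs, and 17.6% of the LPS UMIs of Ccl20, which attracts lymphocytes and was at 5.65 and 36.3 CPM. With free RNA subtracted (38.4% and 38.9%, as above), 6 members kept a value, 3 of them at least 2-fold higher, and the median was 0.98, and Ccl2, Il1b and Cxcl10 had no value left.

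A pair of chemokines stood at higher levels in cluster 3 than in all other cells. Cx3cl1, fractalkine, a membrane-bound chemokine that can be shed, went from 39.1 to 166 CPM, a ratio of 4.24 (3.70 to 4.87). Its level was 1066% of that in all other cells in saline and 176% in LPS, because the other cells went from 3.67 to 94.4. At 3000 UMIs per cell 11.7% and 32.5% of cluster 3 cells held a Cx3cl1 UMI, against 0.909% and 24.1% of cluster 0, so cluster 3 was set apart in saline and much less in LPS. Cxcl11, an interferon-inducible chemokine, was at 55.9 and 65.1 CPM, a ratio of 1.16 (1.01 to 1.35), and at 3555% and 659% of all other cells. It was found in 15.2% and 15.4% of thinned cells of cluster 3 and in 0.333% and 1.84% of cluster 0. Cxcl10, of the same receptor group, rose from 8.33 to 36.5 CPM.

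The NF-κB list followed. Of 20 genes 13 had enough UMIs, 9 rose and 0 fell, with a median log2 ratio of 1.65. Nfkbia, which encodes the inhibitor IκBα, went from 53.5 to 247 CPM, a ratio of 4.62 (4.12 to 5.19), beside 8.03 in all other cells, and its LPS level was 40.7% of theirs. With free RNA subtracted its log2 ratio turned to −1.15. The 38.9% taken off was just below its 40.7%, and the median fibroblast marker in LPS, at 41.5%, was just above it. The sign for Nfkbia after subtraction thus depends on the size of the subtraction. Under the same subtraction 12 members of the list kept a value, and 3 were at least 2-fold higher and 1 lower. Nfkbiz, an atypical inhibitor and coactivator, went from 11.2 to 47.1 CPM, Nfkb1, the p50 subunit, from 32.1 to 76.6, and Nfkb2, the p52 subunit, from 13.3 to 41.8. Zc3h12a, an RNase that degrades cytokine transcripts, went from 8.19 to 35.8 CPM. After this subtraction the log2 ratios of Nfkb1, Nfkb2 and Zc3h12a were 0.70, 0.59 and 0.91, under 2-fold, and that of Nfkb1 was also under it with thinned cells (0.88). Ikbkb, the kinase that acts on IκBα, was at 25.1 and 27.6.

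Receptors upstream of these genes differed in how many UMIs they had. Of 14 LPS sensing genes 7 had enough UMIs, 1 rose and the median log2 ratio was 0.27. The 1 was Tlr2, a receptor for bacterial lipoproteins, at 5.09 and 17.5 CPM, and Tlr4, the LPS receptor, had 2 UMIs in each library. Of 10 cytokine and death receptors 7 had enough UMIs and 2 rose (median 0.62): Fas went from 6.07 to 19.7 CPM, and Tnfrsf12a, the receptor of TWEAK, from 39.0 to 79.4. With free RNA subtracted neither list kept a rise: Tlr2 and Fas had no value left, the log2 ratio of Tnfrsf12a was 0.79, and 1 member of each list was lower. The Tnfrsf12a ratio, 1.02 on the log2 scale, also lay under 2-fold in 4 other settings (0.92 to 0.97). In cluster 3 Tlr4 was too rare for a difference to be detectable.

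Interferon response genes rose in 10 of the 14 with enough UMIs, of 21 listed, with 0 falls and a median log2 ratio of 1.501. Isg15, a ubiquitin-like modifier, went from 16.2 to 70.8 CPM. Mx2, an antiviral GTPase, went from 20.8 to 51.8 CPM and stood at 209% and 176% of all other cells, and Usp18, which removes Isg15, went from 12.7 to 27.9 CPM, at 399% and 152%. Gbp5, a guanylate-binding protein, went from 1.70 to 21.2 CPM. Mx2 and Usp18 were thus above the pooled level of all other cells in both libraries, but 0 members of the list were highest in cluster 3. With free RNA subtracted 9 members kept a value, 4 were at least 2-fold higher and 1 lower, the log2 ratio of Usp18 was 0.85, under 2-fold, and Isg15 had no value left.

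Immediate early genes gave 3 rises and 1 fall among 13 with enough UMIs, of 22 listed (median 0.61). Ier3, a survival gene, went from 93.9 to 246 CPM, Maff, a small Maf factor, from 11.3 to 48.7, and Myc from 11.3 to 31.7, whereas Fos, a subunit of AP-1, went from 10.9 to 4.20. The fall of Fos, −1.35 on the log2 scale, was lost in 3 settings: the value was −0.57 with thinned cells, −0.55 without the 8% of cells with most UMIs and −0.31 without the 10% richest in markers of other types. Fos had no value left when free RNA was subtracted, and the list then had 4 rises and 0 falls among 11 members. In the IL-6 family and acute phase list 8 of 19 had enough UMIs and 1 rose (median 0.34): Cebpb, a transcription factor of the acute phase, went from 169.9 to 379 CPM. Its log2 ratio of 1.16 was 0.99 with thinned cells and 0.72 with free RNA subtracted, and the list then held 0 rises. Stat3, which carries the IL-6 signal, was at 183 and 236.

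**Figure D5:**
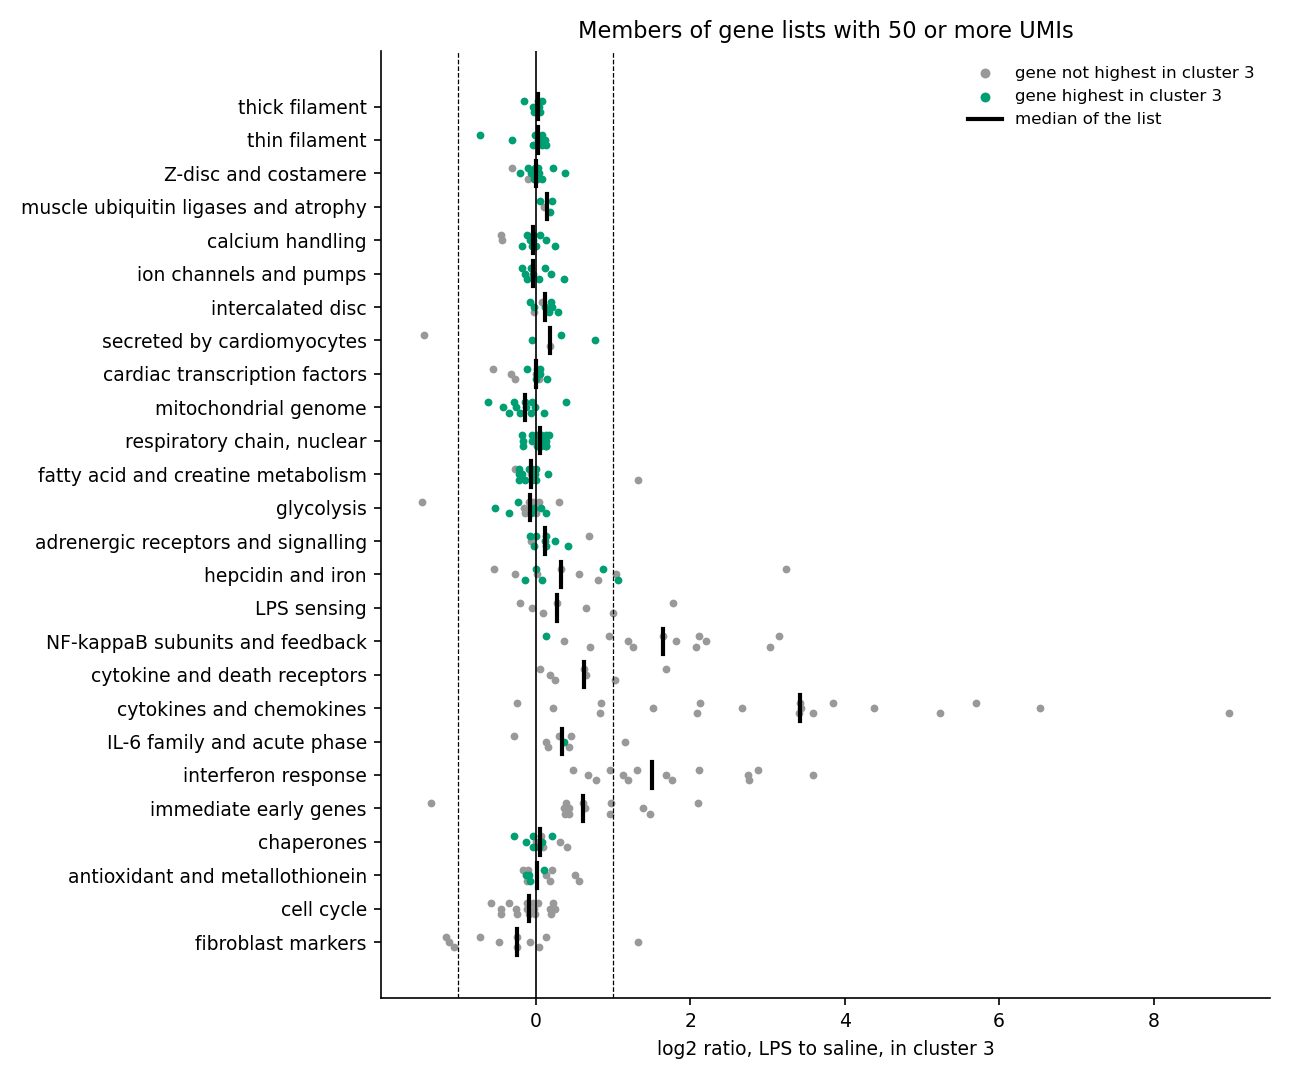
Log2 ratio of LPS to saline (horizontal axis) of every list member with 50 UMIs or more in cluster 3, 1 row for each list, with the list median marked and dashed lines at 2-fold. Sarcomere, calcium and channel genes lay near 0, and the cytokine, NF-κB and interferon lists lay mostly to the right of 1.

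Metabolic lists were close to all genes tested. Mitochondrial transcripts made up a median of 17.9% and 17.3% of a cell's UMIs in cluster 3, against 3.37% and 2.94% in cluster 0. The 13 genes of the mitochondrial genome had a median log2 ratio of −0.14 with 0 past 2-fold, with Mt-nd2, a complex I subunit, at 5121 and 3805 CPM, and Mt-nd6, another, at 61.2 and 79.9. Of 21 nuclear respiratory chain genes 19 had enough UMIs and 0 moved (median 0.05), among them Cox6a2, the muscle subunit of cytochrome oxidase, at 2109 and 2307. Of 23 genes of fatty acid and creatine metabolism 15 had enough and 1 rose (median −0.06), Angptl4, an inhibitor of lipoprotein lipase, from 15.3 to 38.1 CPM.

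Stress, adrenergic and proliferation genes gave 0 members past 2-fold, a count near the background of 1.68% and 1.67%. With free RNA subtracted 3 of 12 cell cycle genes and 1 of 10 antioxidant genes were lower, beside 347 of 7914 over all genes. Sod2, the mitochondrial superoxide dismutase, was at 889 and 1308 CPM, a ratio of 1.47, within 12 antioxidant and metallothionein genes that all had enough UMIs (median 0.02). Of 15 chaperones 12 had enough (median 0.06), and Hspb7, a small heat shock protein of heart muscle, was at 542 and 447. Among 18 adrenergic receptors and signalling genes 10 had enough (median 0.12): Adra1b, an α1 receptor, was at 18.8 and 25.2 CPM, a ratio of 1.34 (1.05 to 1.71), and Adrb1, the β1 receptor, had 2 and 0 UMIs. Of 19 cell cycle genes 17 had enough (median −0.08), with Mki67, a marker of dividing cells, at 17.8 and 13.0.

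Among symbol-named genes the steepest fall was that of Hba-a2, and the falls of globin RNA rested on single cells. The erythroid list summed to 146 and 9.31 CPM, led by the globin gene Hba-a2 at 129 and 8.03. In saline 2 cells with 10 or more erythroid UMIs held 953 of the 1034 UMIs, and in LPS 0 cells had that many, of 51 UMIs in all. Without the 2 cells the log2 ratio of Hba-a2 was −0.28 in place of −4.00. That of Hbb, another globin, was −0.37 in place of −3.59. A like case was Reg3g, an antimicrobial lectin, with 51 of 55 saline UMIs in 1 cell (92.7%). Other steep falls were shared with other cells. Car3, a carbonic anhydrase, went from 20.6 to 1.64 CPM (ratio 0.0796), beside a ratio of 0.0735 in all other cells. Lrrc17, a secreted leucine-rich repeat protein, went from 41.5 to 3.65 CPM (0.0879), beside 0.173. Without the 2 cells rich in erythroid UMIs, a choice made after seeing the data, 142 genes were higher and 137 lower, and 6 and 3 among the genes highest in cluster 3.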

How the data were processed

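Cells of neonatal rat heart were profiled with the 10x 3′ v2 kit. The deposited values are raw UMI counts per gene and cell; per the submitters' processing notes the authors used Cell Ranger 2.2.0 and Seurat 2.3.4, and the genome build is not given in the sources used here. The deposited cell table gives each barcode's library, cluster number and cluster name, made by the authors after joint alignment of both libraries, and supplied the cells of cluster 3. No gene or cell filter was added. The 2 and 8 barcodes of the saline and LPS libraries without a cluster were left out. No doublet caller was run, and alternatives left out the cells with most UMIs or most UMIs of other types' markers. Their counts were summed per library and scaled to 1000000 UMIs with Python 3.11.15, numpy 2.4.6, scipy 1.17.1 and pandas 2.3.3. Of 25399 genes, 8465 with 50 UMIs or more over both libraries entered the counts of changes, and their median log2 ratio was −0.0043. The authors' rank test over cells was not used, since cells of 1 library are not replicates. The script was tested on simulated data. The members and gene lists were chosen with earlier results of these data known. Genes were named from the cluster's markers, from the 15 largest rises and 15 largest falls over all genes and over genes highest in cluster 3, from the 20 most abundant genes, and from each list the members past 2-fold and the 4 with most UMIs; other list members and genes named for their role were chosen after their values were seen. Listed genes without a row, such as Ttn and Cd36, were not analysed here.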

Additional observations from a re-analysis of the deposited data

How the results depend on the processing

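No paired analysis was possible because saline and LPS cells gave 1 library apiece. Genes higher in LPS numbered 142, and 93 with cells thinned to 3000 UMIs (6675 genes left), 219 and 67 at a minimum of 20 and 200 UMIs, and 369 at 1.5-fold. Genes lower in LPS numbered 141, and under the same settings 59, 306, 30 and 445. After free RNA was subtracted, 200 of 7914 genes were higher and 347 lower. Among genes highest in cluster 3 the 6 that were higher became 3 without the 10% of cells richest in markers of other types, 2 at 200 UMIs and 33 at 1.5-fold, and the 3 that were lower became 10 at 20 UMIs, 0 at 200 and 46 at 1.5-fold. No test was run for that 0, and a higher minimum tests fewer genes (1522). The log2 ratio of Nfkbia turned to −1.15 with free RNA subtracted, the one change of sign among 51 named genes past 2-fold, and that of Irak3, just under it at 0.99, turned to −2.62. Of 1044 values of 97 genes, 984 stayed within their counting interval. With free RNA subtracted the median log2 ratio of the cytokine list was 0.98, of the NF-κB list 0.65 and of the interferon list 0.85, over the members with UMIs left. Of 51 genes past 2-fold, 45 stayed past it with thinned cells and 25 of the 34 with a value after the subtraction. The ratio of Hamp ranged from 0.90 to 1.13 on the log2 scale and that of Cx3cl1 from 1.78 to 2.43. Counts under 50 UMIs limit what could be seen in cluster 3 of receptors such as Tlr4.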
